A study of Mus musculus with 14 samples.

Results

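The aldo-keto reductases described here are 10 mouse genes of 3 subfamilies: Akr1c12, Akr1c13, Akr1c14, Akr1c18, Akr1c19 and Akr1c6 of Akr1c, Akr1b3, Akr1b7 and Akr1b8 of Akr1b, and Akr1a1. They were taken by gene symbol from the 40853 gene identifiers of the deposited tables, with earlier results of these data known. RNA was sequenced from αTN4-1, a mouse lens epithelial line that arose from mice carrying the SV40 T antigen under the αA-crystallin promoter. The cells had been made into 7 stable, neomycin-selected lines, labelled S133A-CREB, WT-CREB, S133A-KCREB, KCREB, S133A/R314A-CREB, R314A-CREB and Vector. All lines thus carry the T antigen, and the labels do not say whether a line is a clone. Of each line 1 culture received TGFβ at 20 ng/mL for 24 h without serum and 1 was a control, which gives 14 libraries and no replicate of a line under a treatment. Whether the controls were also kept without serum is not stated, so TGFβ and serum withdrawal cannot be told apart.

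Aldo-keto reductases are soluble NADPH-dependent enzymes that reduce aldehydes and ketones to alcohols. Enzymes of the Akr1c subfamily act on steroids and other carbonyls, and those of the Akr1b subfamily on sugars and lipid aldehydes. In the lens the family is known for aldose reductase, which turns glucose into sorbitol and is the enzyme behind sugar cataract in rodents. The constructs are forms of CREB, the cAMP response element-binding protein. S133A lacks the serine target of protein kinase A, R314A is a leucine zipper change that impairs contact with CRTC coactivators, and KCREB is unable to bind DNA.

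The libraries were alike in breadth, with 12545 to 13081 genes at 1 TPM or more, where TPM is a transcript level per length on a scale with the same total in every library. The tables hold no read counts. The ratio of per-base coverage to FPKM, which follows depth, ran from 5.05 to 10.1. Of 12 lens epithelial markers 8 averaged at least 1 TPM. Among them Pax6 stood at 54.4 to 187 TPM in TGFβ libraries and 63.9 to 328 TPM in control libraries. The sum of the 12 was 594 to 1039 TPM in TGFβ libraries and 719 to 2535 TPM in control libraries. Cryab had the highest median of the 12, at 244 to 529 TPM with TGFβ and 310 to 1674 TPM in controls. Foxe3 was listed at or near 0 in every library, and Cdh1, Gja1 and Cdkn1c did not pass 0.249 TPM. Of 9 lens fiber markers, Crygs and Bfsp2 averaged at least 1 TPM, and the sum was 0.688 to 2.44 TPM in TGFβ libraries and 1.28 to 13.0 TPM in control libraries, with Crygs listed at 0 in all 7 TGFβ libraries. None of 4 liver and 3 endothelial markers averaged 1 TPM, and of 4 steroidogenic markers only Star did. Of 5 macrophage markers, Cd68, Csf1r and Lyz2 averaged at least 1 TPM and Adgre1 was listed at 0. The macrophage sum was 13.9 to 42.2 TPM in TGFβ libraries and 25.2 to 89.2 TPM in control libraries. The part of the lens epithelial, lens fiber and macrophage sums in the results below was not tested.

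Of the 10 genes, 7 averaged at least 1 TPM over the 14 libraries and entered the fits among the 12927 genes tested. The member nearest above that limit was Akr1b7, with a mean of 1.04 TPM, and the nearest below was Akr1c12, far under it with a mean of 0.084 TPM. Akr1c6, a 17β-hydroxysteroid dehydrogenase of mouse liver, was listed at 0 in all 14 libraries, and Akr1c19 did not pass 0.0356 TPM. Akr1a1, the aldehyde reductase that also serves vitamin C synthesis in mice, was the most abundant member in TPM. It made up 64.3% to 83.5% of the summed TPM of the family in TGFβ libraries and 50.8% to 74.3% in control libraries. Akr1b3, which is aldose reductase, was next, with 13.4% to 21.7% in TGFβ libraries and 8.17% to 18.8% in control libraries.

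**Figure D1:**
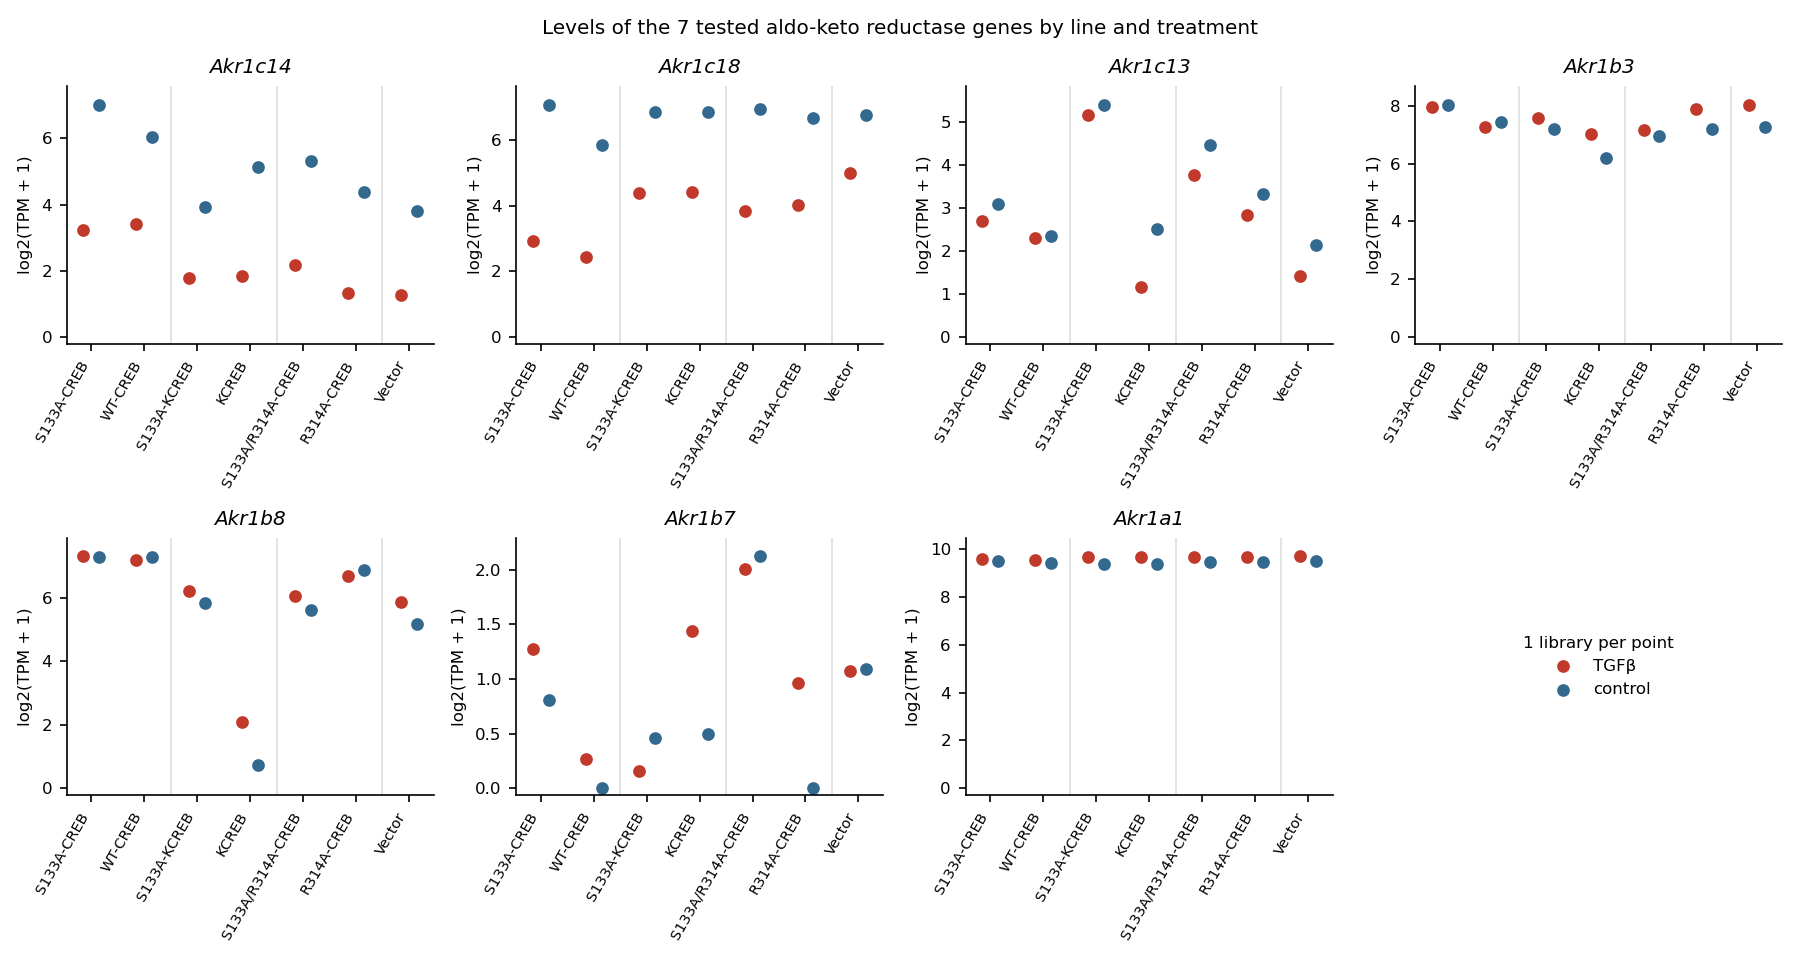
Level of each of the 7 tested members, on the log2(TPM + 1) scale, in the TGFβ and the control library of each line, with 1 point per library. Akr1c14 and Akr1c18 are lower with TGFβ in every line, Akr1a1 is nearly flat across lines, and Akr1b8 is low in both libraries of the line labelled KCREB.

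Akr1c14, a 3α-hydroxysteroid dehydrogenase, and Akr1c18, the 20α-hydroxysteroid dehydrogenase that inactivates progesterone in mice, had the largest TGFβ differences of the family. Akr1c14 was at 8.36 TPM with TGFβ against 129 TPM in the control of the line labelled S133A-CREB, and at 9.75 against 65.3 TPM in WT-CREB. It was at 2.44 against 14.3 TPM in S133A-KCREB, 2.59 against 34.0 TPM in KCREB, 3.48 against 38.7 TPM in S133A/R314A-CREB, 1.52 against 20.0 TPM in R314A-CREB and 1.40 against 13.0 TPM in Vector. Every TGFβ library was therefore below every control library, as for 0.905% of tested genes. The line with the highest control level had the second highest level with TGFβ. The mean difference on the log2(TPM + 1) scale was −2.95 ± 0.54 (SD, n = 7 lines), and the TGFβ level was 0.0647 to 0.170 times the control level of the same line.

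Akr1c18 was at 6.58 TPM with TGFβ against 135 TPM in the control of S133A-CREB, and at 4.46 against 57.1 TPM in WT-CREB. It was at 20.1 against 115 TPM in S133A-KCREB, 20.5 against 117 TPM in KCREB, 13.2 against 124 TPM in S133A/R314A-CREB, 15.2 against 101 TPM in R314A-CREB and 30.8 against 107 TPM in Vector. These groups did not overlap either, and the smallest difference was in Vector, whose TGFβ library was the highest of the 7. The mean difference was −2.86 ± 0.78 on the log2(TPM + 1) scale (SD, n = 7 lines), with the TGFβ level at 0.0485 to 0.286 times the control level. Among 12927 tested genes the mean differences of Akr1c14 and Akr1c18 ranked 3 and 4 from the lowest. Of the 7 tested members these 2 were at least 2-fold lower on that scale in all 7 lines, as were 0.186% of tested genes. The members were chosen on this contrast, so their differences are a description and carry no test. In RNA from whole cultures, fewer cells that express a gene and less RNA per cell cannot be told apart.

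Akr1c14 and Akr1c18 are neighbours on mouse chromosome 13, at 4099015 to 4140569 on the plus strand and 4182614 to 4200645 on the minus strand of GRCm39. Their coding sequences are 76.5% identical. No 50-base window of the Akr1c14 transcript occurred in a transcript of another gene in the mouse GENCODE vM21 set, and 0.608% of the windows of Akr1c18 did. Since both had lower levels with TGFβ, their promoters are shown, from 250 bases before to 50 after the start site in the RefSeq table of GRCm38.p6. They lie at chr13:4059341-4059640 on the plus strand for Akr1c14 and at chr13:4150597-4150896 on the minus strand for Akr1c18. The start of Akr1c14 on GRCm39 and its window on GRCm38.p6 lie closer together than those of the other Akr1c genes. The gene as quantified may thus begin upstream of the start site shown, and the window covers that start site alone. Capitals mark the CAGAC box, which SMAD proteins can bind, or its reverse complement.
Akr1c14: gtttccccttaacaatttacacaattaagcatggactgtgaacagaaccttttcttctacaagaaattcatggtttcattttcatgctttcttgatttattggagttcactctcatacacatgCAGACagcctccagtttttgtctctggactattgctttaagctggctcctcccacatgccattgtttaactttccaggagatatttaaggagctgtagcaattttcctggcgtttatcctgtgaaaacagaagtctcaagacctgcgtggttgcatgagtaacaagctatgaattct
Akr1c18: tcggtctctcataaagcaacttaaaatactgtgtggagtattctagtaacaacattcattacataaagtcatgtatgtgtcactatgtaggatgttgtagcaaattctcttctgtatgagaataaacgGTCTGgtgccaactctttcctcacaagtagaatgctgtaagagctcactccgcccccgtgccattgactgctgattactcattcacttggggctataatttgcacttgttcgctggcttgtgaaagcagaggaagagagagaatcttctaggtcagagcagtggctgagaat
The CAGAC box starts 127 bases before the start site of Akr1c14 and, on the other strand, 122 bases before that of Akr1c18. It occurs in 49.6% of the 32851 promoter windows of the table, searched on both strands. Of the other members with a window, Akr1b8 also holds it, and Akr1c13 holds it 2 times. Akr1b8 had a mean TGFβ difference of 0.37 and Akr1c13 one of −0.57, so the box was not particular to Akr1c14 and Akr1c18. Neither the Akr1c14 nor the Akr1c18 window holds the cAMP response element TGACGTCA, found in 1.79% of windows, its core TGACG, found in 20.8%, or the palindromic SMAD element GTCTAGAC, found in 0.213%. The longest run of bases that the 2 windows share is 8 long.

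Akr1c13 lies between Akr1c18 and Akr1c12 in the same cluster, at 4241166 to 4255603 on chromosome 13 of GRCm39. Akr1c12 and Akr1c13 have coding sequences that are 96.2% identical, and 28.6% of the 50-base windows of each transcript occur in the other. All other pairs of the 6 Akr1c genes are 73.1% to 77.8% identical. Reads of Akr1c12 and Akr1c13 can therefore be divided uncertainly, and their promoters are shown because the near-identity extends upstream. The windows lie at chr13:4279350-4279649 on the minus strand for Akr1c12 and at chr13:4190937-4191236 on the plus strand for Akr1c13, on GRCm38.p6 from RefSeq. Capitals mark the longest run that both share, of 75 bases.
Akr1c12: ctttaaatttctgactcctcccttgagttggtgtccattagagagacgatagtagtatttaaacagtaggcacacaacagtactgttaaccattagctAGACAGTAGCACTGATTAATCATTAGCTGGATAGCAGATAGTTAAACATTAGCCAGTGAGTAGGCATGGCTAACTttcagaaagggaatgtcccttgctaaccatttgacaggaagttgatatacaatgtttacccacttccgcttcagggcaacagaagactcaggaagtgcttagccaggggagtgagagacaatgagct
Akr1c13: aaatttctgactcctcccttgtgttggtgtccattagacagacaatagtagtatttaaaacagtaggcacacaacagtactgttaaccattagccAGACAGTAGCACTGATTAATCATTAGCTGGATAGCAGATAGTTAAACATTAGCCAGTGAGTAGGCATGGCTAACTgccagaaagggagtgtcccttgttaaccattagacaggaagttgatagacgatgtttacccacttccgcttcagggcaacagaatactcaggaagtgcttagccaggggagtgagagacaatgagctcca
The levels of this near-identical pair were far apart. Akr1c12 had a highest value of 0.127 TPM in TGFβ libraries and 0.404 TPM in control libraries, whereas Akr1c13 reached 34.5 TPM in TGFβ libraries and 41.3 TPM in control libraries. Both highest values of Akr1c13 came from the line labelled S133A-KCREB.

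Akr1c13 was at 34.5 TPM with TGFβ against 41.3 TPM in the control of S133A-KCREB, 12.5 against 20.9 TPM in S133A/R314A-CREB and 6.10 against 9.06 TPM in R314A-CREB. It was at 5.48 against 7.45 TPM in S133A-CREB, 3.92 against 4.08 TPM in WT-CREB, 1.23 against 4.70 TPM in KCREB and 1.68 against 3.42 TPM in Vector. The TGFβ library was the lower one in all 7 lines, but the ranges overlapped because lines differed more than treatments. The mean difference was −0.57 ± 0.42 on the log2(TPM + 1) scale (SD, n = 7 lines). Akr1c13, Akr1c14 and Akr1c18 were the 3 tested members that were lower in all 7 lines, as were 15.9% of tested genes.

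Because reads may be divided between copies, the 6 Akr1c genes were also summed. Their sum was 18.1 to 57.1 TPM in TGFβ libraries, median 24.3 TPM, and 124 to 272 TPM in control libraries, median 156 TPM, without overlap. The mean difference was −2.50 ± 0.68 on the log2(TPM + 1) scale (SD, n = 7 lines), lower in 7 of 7. What made up the sum differed between lines. Akr1c14 held 53.8% of it with TGFβ and 51.6% in the control of WT-CREB, and 40.9% with TGFβ and 47.5% in the control of S133A-CREB. In the other 5 lines Akr1c14 held at most 11.9% with TGFβ and 21.9% in controls, and Akr1c18 held the largest share, except with TGFβ in S133A-KCREB, where Akr1c13 held 60.4%.

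**Figure D2:**
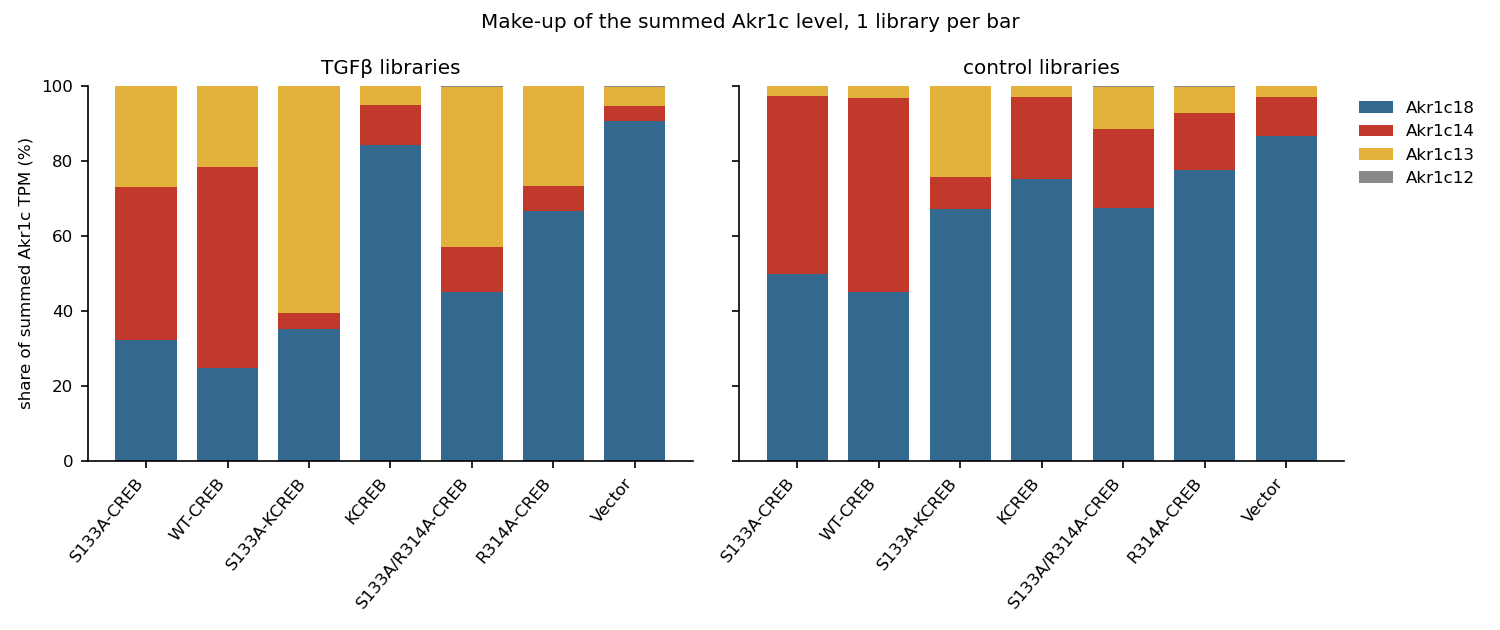
Share of the summed Akr1c TPM held by each Akr1c gene in the TGFβ and the control library of each line, in percent. Akr1c14 holds 40.9% to 53.8% in the 4 libraries of S133A-CREB and WT-CREB and less in all others, and Akr1c13 holds 60.4% in the TGFβ library of S133A-KCREB.

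The Akr1b genes had TGFβ differences of either sign, depending on the line. Akr1b3 was at 129 to 258 TPM in TGFβ libraries, median 192 TPM, and 73.1 to 264 TPM in control libraries, median 148 TPM. The difference was 0.37 ± 0.41 on the log2(TPM + 1) scale (SD, n = 7 lines), higher in 5 lines and lower in S133A-CREB and WT-CREB, and the ranges overlapped. Of the 50-base windows of the Akr1b3 transcript, 86.2% also occur in other genes of the annotation. Gm38056 shares 82.4% of them, but its symbol is not among those deposited. Of the genes that share windows only Gm6644 is listed there, at 1.39 to 7.35 TPM. The level of Akr1b3 is therefore uncertain, by an amount that was not tested. Akr1b8, known as a fibroblast growth factor-induced relative of aldose reductase, had 3.24 to 159 TPM in TGFβ libraries, median 72.8 TPM, and 0.667 to 156 TPM in control libraries, median 56.5 TPM. Its difference of 0.37 ± 0.54 (log2, SD, n = 7 lines) was higher in 5 lines and lower in WT-CREB and R314A-CREB. Akr1b7, a relative abundant in vas deferens and adrenal gland, stayed at or below 3.36 TPM, was higher with TGFβ in 4 lines and lower in 3, and averaged 0.31 ± 0.51 (log2, SD, n = 7 lines).

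Akr1a1 varied least between lines among the 7 tested members, by the SD of line means on the log2 scale, which was 0.04. It was at 746 to 835 TPM in TGFβ libraries, median 806 TPM, and 657 to 727 TPM in control libraries, median 710 TPM, so the groups did not overlap. Its difference was 0.20 ± 0.07 on the log2(TPM + 1) scale (SD, n = 7 lines), higher in 7 of 7 lines, as were 18.5% of tested genes. Every TGFβ library was above every control library for 1.45% of tested genes, and every one below for 0.905%. The sum of all 10 genes was 959 to 1196 TPM in TGFβ libraries and 895 to 1404 TPM in control libraries, with a difference of 0.03 ± 0.15 (log2, SD, n = 7 lines) and the TGFβ library lower in 3 lines. The Akr1c sum and Akr1a1 thus differed in opposite directions within a family sum whose groups overlapped.

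**Figure D3:**
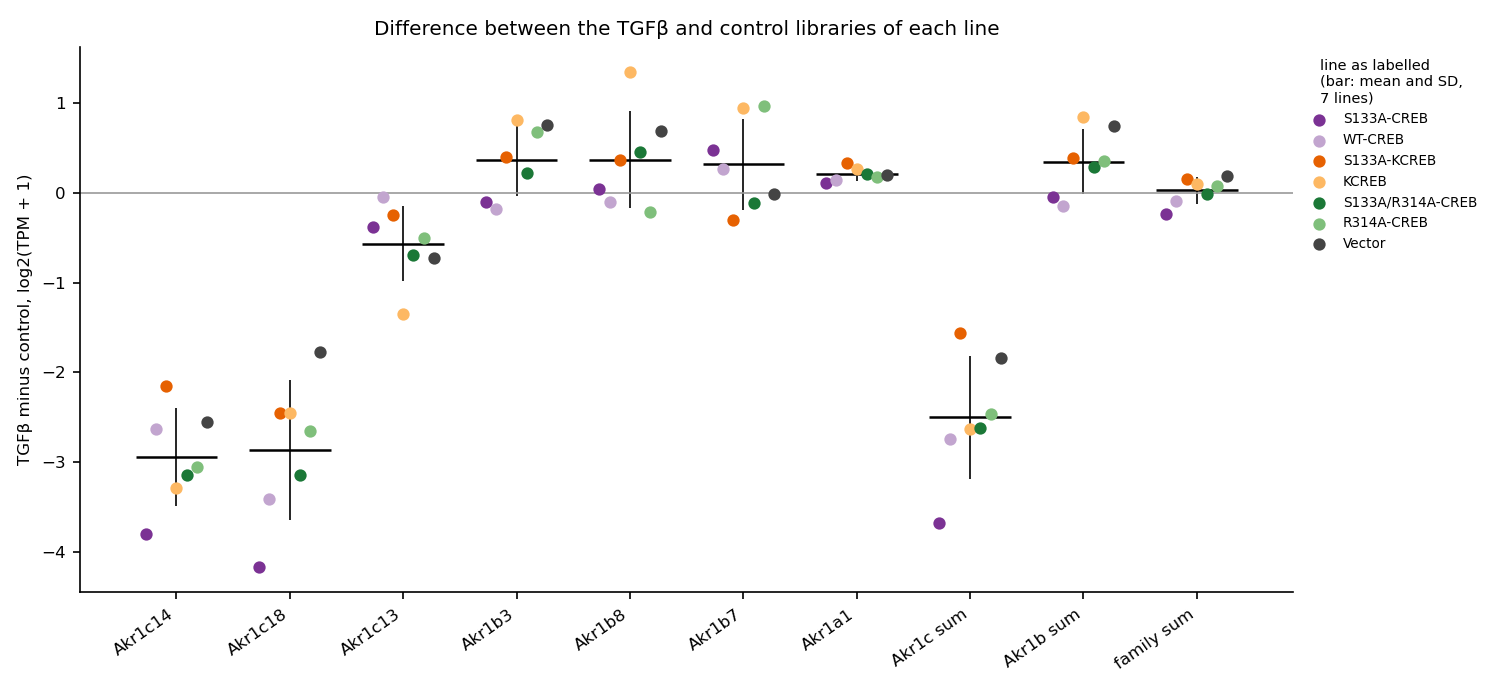
TGFβ minus control difference of each line on the log2(TPM + 1) scale, for the 7 tested members and 3 sums, with the mean and SD over 7 lines as bars. All 7 lines lie below 0 for Akr1c14, Akr1c18, Akr1c13 and the Akr1c sum, all 7 lie above 0 for Akr1a1, and the Akr1b genes lie on both sides.

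Lines differed from each other in the same way under both treatments for some members and not for others. Of the 21 pairs of lines, 20 had the same order in both treatments for Akr1b8 and 19 for Akr1c13 and for Akr1c14, against 10 for Akr1c18 and 11 for Akr1a1. Among controls the highest line was 234-fold above the lowest for Akr1b8, 12.1-fold for Akr1c13 and 9.91-fold for Akr1c14, but 2.37-fold for Akr1c18 and 1.11-fold for Akr1a1. The order of Akr1c14 in controls was S133A-CREB, WT-CREB, S133A/R314A-CREB, KCREB, R314A-CREB, S133A-KCREB and Vector, from high to low. With 1 library per line and treatment, no spread is available to tell neighbours in that order apart.

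The construct effects were tested in the 6 CREB lines, with each line taken as the mean of its libraries. None of the 7 tested members passed an adjusted p of 0.05 in limma for S133A, for K, for R314A or for the S133A by TGFβ interaction, and the background was 0% in each of these. At an unadjusted p under 0.05 the background was 5.83% for S133A, 10.1% for K, 6.35% for R314A and 3.52% for the interaction, and 1, 3, 2 and 0 members were below it. When each line instead entered as a random effect over all 12 libraries of the CREB lines, 0.217% of tested genes passed for S133A, 1.09% for K and 0.0464% for R314A, and again no member. The fit's intervals were wide, so a member that missed the threshold is not shown to be alike between constructs.

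Akr1c13 was the member below an unadjusted 0.05 for S133A. It averaged 20.4 TPM in the 3 lines labelled S133A and 4.85 TPM in the 3 without it, a difference of 1.68 ± 0.59 (log2, SE, 95% interval 0.17 to 3.19, limma adjusted p = 0.809). The S133A line was the higher one in 3 of 3 matched pairs under both treatments, as for 7.5% of tested genes. The difference was 0.79 without the line labelled KCREB, and 0.79 without S133A-KCREB. Akr1c14 had an S133A difference of 0.21 (95% interval −0.62 to 1.04), and Akr1c18 one of 0.29 (−0.28 to 0.86). For the interaction, Akr1c18 had the difference nearest the threshold, −0.42 (95% interval −0.84 to 0.00095, limma adjusted p = 0.999). TGFβ minus control for Akr1c18 averaged −3.26 in the 3 lines labelled S133A and −2.84 in the 3 matched lines. The S133A line had the more negative difference in the WT-CREB pair, −4.17 against −3.41, and in the R314A pair, −3.14 against −2.65, while the K pair was at −2.45 in both lines.

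Akr1c14 averaged 13.3 TPM in the 2 lines labelled K and 15.9 TPM in the 2 labelled R314A, against 53.1 TPM in the 2 CREB lines with neither. The differences were −1.76 ± 0.40 for K (log2, SE, limma adjusted p = 0.315) and −1.63 ± 0.40 for R314A (adjusted p = 0.739). Akr1c18 had log2 differences of the other sign, with 68.0 TPM in the K lines, 63.4 TPM in the R314A lines and 50.9 TPM in the lines with neither. Its differences were 1.06 ± 0.27 for K (log2, SE, adjusted p = 0.347) and 0.79 ± 0.27 for R314A (adjusted p = 0.773), so neither gene passed after adjustment. Against WT-CREB, Akr1c18 was higher in KCREB and R314A-CREB in both treatments. Against S133A-CREB it was higher with TGFβ alone, at 20.1 TPM in S133A-KCREB and 13.2 TPM in S133A/R314A-CREB against 6.58 TPM, and lower in controls, at 115 and 124 TPM against 135 TPM. Both contrasts use the same 2 lines, S133A-CREB and WT-CREB, as their base.

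Akr1b8 averaged 33.3 TPM in the K lines and 154 TPM in the lines with neither, a difference of −3.55 ± 1.33 (log2, SE, limma adjusted p = 0.470). It was −1.02 without the line labelled KCREB and −6.08 without S133A-KCREB, so the size rested on KCREB, where Akr1b8 was at 3.24 TPM with TGFβ and 0.667 TPM in the control. By a rule chosen after the values were seen, all 4 K and R314A lines were below both other CREB lines in both treatments for Akr1c14 and Akr1b8, as for 5.89% of tested genes, and above both for no member, against 3.66% of tested genes. The Akr1b sum was 169 TPM in the K lines against 363 TPM in the lines with neither, lower in the K line of 2 of 2 pairs. The Akr1c sum averaged 102 TPM in the K lines against 109 TPM in the lines with neither, but on the log2(TPM + 1) scale the mean difference was 0.37, higher in the K line of 2 of 2 pairs, so its direction depended on the scale.

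The level of Creb1, the gene behind the constructs, was not above Vector in every line labelled for CREB. In both treatments it was above Vector in both lines labelled K and below it in the other 4 CREB lines. The lines set against each other in the K contrasts thus also differed in Creb1 level. Neither the labels nor the values tell whether the Creb1 level includes RNA made from a construct. With TGFβ it stood at 4.43 TPM in S133A-CREB, 9.68 in WT-CREB, 6.01 in S133A/R314A-CREB and 5.89 in R314A-CREB, against 23.1 TPM in Vector. In controls it stood at 6.59, 11.6, 7.92 and 9.04 TPM in the same 4 lines, against 20.8 TPM in Vector. Creb1 was above Vector in the lines labelled S133A-KCREB and KCREB, at 38.3 and 30.1 TPM with TGFβ against 23.1 TPM, and at 34.0 and 25.8 TPM in controls against 20.8 TPM. The lines are therefore named here by their labels. Of the 7 tested members, Akr1c14 was higher than in Vector in all 6 CREB lines under both treatments, as were 3.76% of tested genes. It was at 1.52 to 9.75 TPM against 1.40 TPM with TGFβ and at 14.3 to 129 TPM against 13.0 TPM in controls. The lowest of these CREB lines were thus close to Vector. Akr1a1 was lower than in Vector in all 6 under both treatments, as were 4.29%, at 746 to 825 TPM against 835 TPM with TGFβ and at 657 to 713 TPM against 727 TPM in controls. With TGFβ alone, Akr1c18 was also lower in all 6, at 4.46 to 20.5 TPM against 30.8 TPM, and so was Akr1b3, at 129 to 246 TPM against 258 TPM, as were 11% of tested genes. In controls alone, Akr1c13 was also higher in all 6, at 4.08 to 41.3 TPM against 3.42 TPM, as were 9.19% of tested genes. These differences from Vector rest on 1 Vector library per treatment and were not tested.

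Genes of pathways around the family were tested for TGFβ on lists chosen with earlier results known. In limma 24.1% of tested genes rose and 21.4% fell at an adjusted p under 0.05, with a median difference of 0.02. Of 11 other aldo-keto reductases and relatives, 10 were in the tables and 4 were tested, and all 4 fell, with a median difference of −0.35. Kcnab1, a beta subunit of voltage-gated potassium channels, averaged 9.07 ± 6.33 TPM with TGFβ and 31.9 ± 28.3 TPM in controls (SD, n = 7 each), a difference of −1.54 ± 0.19 (log2, SE, adjusted p = 0.000442). Its per-base coverage was low for its TPM, at 0.0735 to 0.628 in TGFβ libraries and 0.199 to 2.73 in controls. The level and difference of Kcnab1 are therefore uncertain. Akr1e1, a reductase of 1,5-anhydrofructose, differed by −0.45 (adjusted p = 0.00395), Akr7a5, an aflatoxin aldehyde reductase, by −0.25 (adjusted p = 0.00632) and Kcnab2, another channel subunit, by −0.25 (adjusted p = 0.0113). Per-base coverage was also low for the TPM of Kcnab2 and, less so, of Akr1e1. In the TGFβ library of Vector it was 17.3 at 33.3 TPM for Kcnab2 and 28.4 at 26.4 TPM for Akr1e1. For Akr7a5 it was 62.2 at 33.6 TPM in that library.

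In aldehyde and carbonyl clearance 16 of 29 tested genes fell and 2 rose, with a median of −0.27. Aldh1a1, a retinaldehyde dehydrogenase, averaged 29.2 ± 31.3 TPM with TGFβ and 279 ± 294 TPM in controls (SD, n = 7 each), lower in 7 of 7 lines by −3.26 ± 0.22 (log2, SE, adjusted p = 4.54e-05). Its close relative Aldh1a7 differed by −2.30 (adjusted p = 0.000431). The 2 that rose were Aldh18a1, of proline synthesis, by 0.40 (adjusted p = 0.0173), and Aldh1l2, a mitochondrial folate enzyme, by 0.29 (adjusted p = 0.0165). Without the filter on low values, 0 genes of this list passed as higher.

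In the polyol and osmotic list 8 of 15 tested genes fell and 5 rose, or 3 when the line labelled Vector was left out, with a median of −0.28. The water channels Aqp5 and Aqp1 fell by 1.93 and 1.10 on the log2 scale (adjusted p = 7.36e-05 and 8.56e-05), each in 7 of 7 lines. Sgk1, a kinase induced by hypertonic stress, rose by 1.38 (adjusted p = 0.000729) and Hk2, a hexokinase, by 0.71 (adjusted p = 0.0201). Sord, sorbitol dehydrogenase, which oxidises the product of aldose reductase, differed by −0.60 (adjusted p = 0.00361) and Slc5a3, the inositol transporter, by −1.06 (adjusted p = 0.00117). The other genes of the list that rose were Slc38a2, by 0.69 (adjusted p = 0.00022), Hspa4l, by 0.25 (adjusted p = 0.00547), and Slc6a6, by 0.23 (adjusted p = 0.0297). Sord, Slc5a3 and these other genes were named after their values were seen.

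In steroid metabolism 4 of 12 tested genes fell and 2 rose, with a median of −0.02. Without the filter on low values 2 fell and 1 rose. Hsd17b10 and Hsd17b7 fell by 0.48 and 0.35 on the log2 scale (adjusted p = 0.00153 and 0.0185), and Cyb5r1 and Hsd3b7 rose by 0.36 and 0.31 (adjusted p = 0.0165 and 0.00314). Among prostaglandin genes 5 of 15 fell and 3 rose. Ptger4, a prostaglandin E2 receptor, fell by 1.38 and Ptgds, a prostaglandin D synthase, by 0.77 (adjusted p = 8.74e-05 and 0.000842). Ptgs1 and Ptgs2, the cyclooxygenases, rose by 0.94 and 0.89 (adjusted p = 0.00984 and 0.00572).

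Of the NRF2 list, the transcription factor and its antioxidant target genes, 14 of 34 tested genes fell and 5 rose, with a median of −0.18. Gstm1, a glutathione transferase, averaged 162 ± 58.0 TPM with TGFβ and 448 ± 128 TPM in controls (SD, n = 7 each), a difference of −1.49 ± 0.19 (log2, SE, adjusted p = 0.000474). Gsta2 differed by −1.77 (adjusted p = 0.00517), with reads that may be shared among near-identical Gsta copies. Slc7a11, the cystine transporter, and Bach1, a repressor of the pathway, rose by 0.59 and 0.36 (adjusted p = 0.0152 and 0.000976). Among the 9 members with a promoter window, the antioxidant response element, letters TGACNNNGC, occurred in Akr1c19 and in no other, against 12.4% of all windows.

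**Figure D4:**
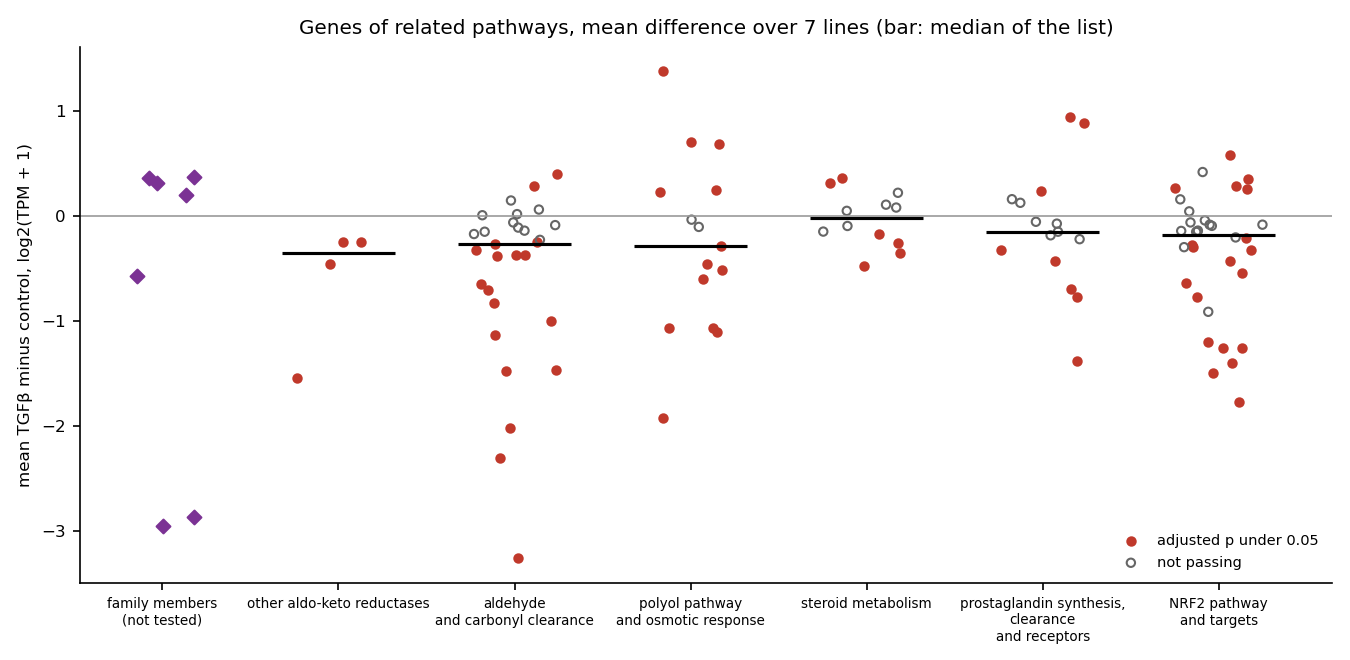
TGFβ minus control difference on the log2(TPM + 1) scale of each tested gene of the 6 lists, with the list median, as fitted by limma over 7 lines. Differences lie mostly below 0 in the aldehyde and other aldo-keto reductase lists, whose medians are −0.27 and −0.35, and the steroid list has a median of −0.02.

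The genes whose pattern over the 14 libraries was most like each summed profile were found among 10057 genes by the root mean square difference of centred log2(TPM + 1) values. For the Akr1c sum, whose own root mean square was 1.33, these were Klhdc8a at 0.761, Aqp5 at 0.774, C1ra, a complement protease, at 0.779, Ccnd1, cyclin D1, at 0.780 and Kitl, stem cell factor, at 0.787, against 1.36 for the median gene. For the Akr1b sum, with 0.650 of its own, they were Rflnb, Arhgap39, Tns3, Irf2bpl and Cdon at 0.264 to 0.343, against 0.686. For Akr1a1, with 0.115 of its own, they were Papola, Nedd1, Pgam5, Atg16l1 and Rnf6 at 0.0641 to 0.0754, against 0.278. These are descriptions over libraries that share lines and treatments, with no test.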

How the data were processed

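Per the submitters' processing notes, STAR 2.7.6a, StringTie 2.0.4, edgeR and the build GRCm39 were used, with no roles given. The authors deposited TPM, FPKM and per-base coverage (signal) for each gene of each library. TPM is scaled to a fixed total, so a rise elsewhere lowers it. For strandedness and annotation release, the sources used here give nothing. Lines and treatments came from the sample titles.

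Values were taken as log2(TPM + 1), which understates differences of low genes. Genes averaging 1 TPM or more entered limma 3.58.1 (R 4.3.3) with an intensity trend, the line as block and Benjamini-Hochberg adjustment over all of them, two-sided, at 0.05. Libraries of a line deviated together (r of 0.614 to 0.845, against 0.275 or less between lines). Construct effects used line means. The fits were tested on simulated data. For the constructs, simulated lines differed only by noise and an added shift, unlike the real lines. That check therefore cannot tell how well the construct fit finds effects here. From each list the 2 highest and 2 lowest passing genes at 5 TPM or more were named. Alternatives changed pseudocount, filter, scaling, unit, trend, block and lines. Members and lists were chosen with earlier results of these data known.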

Additional observations from a re-analysis of the deposited data

Results flagged for a closer look

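Of 30 groups of 7 libraries examined, 3 held a library far from the others, where chance alone flags about 1 in 20. Akr1c18 was lowest in the control library of WT-CREB, at 5.86 on the log2(TPM + 1) scale, with the next library at 6.67. Akr1b8 was lowest in the line labelled KCREB in both treatments. It was at 2.08 with TGFβ, with the next library at 5.88, and at 0.74 in the control, with the next at 5.19. The cause was not tested.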

How the results depend on the processing

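Of 132 alternative values for the TGFβ differences of members and sums, 130 stayed within the spread between lines. The other 2 were Akr1c14, at −2.16 with a pseudocount of 5, and Akr1b7, at 0.90 with a pseudocount of 0.1. Over all alternatives the Akr1c sum ran from −2.66 to −2.31, Akr1c14 from −3.29 to −2.16 and Akr1c18 from −3.05 to −2.53. The family sum ran from −0.00062 to 0.07, so its sign was not fixed. No member passed a construct contrast in any of 69 alternatives. In most of these no tested gene passed either, so the result says nothing particular to the members. The most genes that passed was 141, or 1.09% of tested genes, for K with the line as a random block. Without the replicate block, that is without pairing the libraries of a line, 645 genes rose and 519 fell, against 3110 and 2762 with it. Leaving out each line in turn gave 2534 to 3155 that rose and 2298 to 2763 that fell. Of 204 alternative list counts, 15 changed by more than 1.5 times, most of them without the block. With 1 library per line and treatment and no counts, counting error is unknown and low values such as Akr1b7 are the least certain.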
